A study of Mus musculus with 4 samples.

Results

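TLE3 binding was examined at 8 genes of the Wnt/β-catenin pathway, namely the TCF/LEF factor genes Tcf7l2, Tcf7l1, Tcf7 and Lef1, the β-catenin gene Ctnnb1, and the feedback genes Axin2, Lgr5 and Lgr4. The 3 deposited region lists were joined by region identifier into 69599 regions, and every region whose nearest gene was 1 of the 8 was taken. This gave 74 regions, of which 40 lay within 50 kb of a transcription start site, and each of the 8 genes had at least 1. The measurement was chromatin immunoprecipitation with sequencing (ChIP-seq) with an antibody to TLE3, in 1 library for each of 3 fat depots, namely the epididymal (eWAT) and inguinal (iWAT) white depots and brown adipose tissue (BAT). The only input library, chromatin without antibody, came from iWAT.

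All 4 libraries came from stromal-vascular cells of male NMRI mice aged 4 to 5 weeks, pooled from 10 to 15 mice. The cells became adipocytes in culture, in medium that held the PPARγ agonist rosiglitazone at 1 µM and insulin at 30 nM, and were harvested on day 8. Brown fat was a pool of interscapular, cervical and axillary tissue. Cultures were kept where more than 50% of the cells had differentiated, so other stromal cells could make up part of each culture. No genotype or treatment differed between the groups, and with 1 library per depot a difference between depots and a difference between libraries cannot be told apart.

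In Wnt signalling, secreted Wnt proteins stop the breakdown of β-catenin, which then enters the nucleus and activates genes to which TCF/LEF proteins have brought it. Without β-catenin, TCF/LEF proteins hold Groucho/TLE corepressors such as TLE3 on the same genes. Wnt signalling is known to restrain fat cell formation, and TLE3 is known to promote it together with PPARγ.

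Values are scaled reads, the reads in a region brought by the authors to 1 total per library. All regions had 230 bases between start and end, so values can be compared between genes. A single read counted as 0.883 scaled reads in eWAT and 0.526 in iWAT, as 2.77 in BAT and as 0.651 in the input, so BAT was the shallowest library. A value of 0 allows up to 3 reads, which is 2.65, 1.58, 8.30 and 1.95 scaled reads in that order. A region on a depot's list held 15 or more scaled reads there and 10 or more times the input. Across lists of marker genes, regions within 50 kb were found at 9 of 9 adipocyte, 5 of 6 brown adipocyte, 4 of 5 macrophage, 4 of 4 endothelial and 4 of 4 mesothelial genes. BAT listed such a region at 8, 5, 0, 3 and 2 of them, with no region in any library at Prdm16 or Cd68. Expression was not measured, so these counts do not show which cells were present.

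The regions within 1 kb of a start site lay at Axin2 and Ctnnb1. The promoter sequences of both genes are shown because BAT had the highest scaled value at 3 of these regions. The sequences are the 250 bases before a RefSeq start site of build GRCm38.p6, on the plus strand. That build differs from the mm9 build of the region coordinates, the start sites were not matched between builds, and the strain is not the NMRI strain of the cultures. Capitals mark each CG pair.
Axin2, chr11:108920099-108920348: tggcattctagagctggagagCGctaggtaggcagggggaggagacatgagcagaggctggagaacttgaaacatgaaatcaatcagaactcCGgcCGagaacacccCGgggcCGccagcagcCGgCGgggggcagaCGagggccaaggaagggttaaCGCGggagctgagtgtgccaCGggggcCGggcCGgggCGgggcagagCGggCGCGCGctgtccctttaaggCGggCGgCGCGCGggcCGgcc
Ctnnb1, chr9:120933150-120933399: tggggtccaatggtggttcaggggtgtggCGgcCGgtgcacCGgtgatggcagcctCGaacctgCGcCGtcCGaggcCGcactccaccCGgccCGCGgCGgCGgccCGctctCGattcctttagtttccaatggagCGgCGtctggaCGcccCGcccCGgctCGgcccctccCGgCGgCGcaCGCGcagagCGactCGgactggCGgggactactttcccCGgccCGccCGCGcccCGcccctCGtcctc

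Both sequences were rich in CG pairs, with 24 at Axin2 and 35 at Ctnnb1. The median over 32851 RefSeq promoters of the same length was 6, and 12% of them held at least as many as Axin2 and 2.97% at least as many as Ctnnb1. A second Ctnnb1 promoter held 43. This trait was not particular to the 2 genes, since promoters of Tcf7, Tcf7l2 and Tcf7l1, with no region within 1 kb, held 37, 30 and 29. A second Tcf7 promoter held 15 and a second Tcf7l2 promoter 7, while those of Lef1 held 5 to 14 and that of Lgr4 10. The TCF/LEF core motif CTTTGAT, read on both strands, was in 0 of 13 promoters of 7 of the genes and in 3.21% of all promoters. A second form, CTTTGTT, looked for after the data were seen, was in 1 of the 13, a Tcf7l2 promoter, and in 5.03% of all promoters. No site can match both motifs, and a match or its lack describes only the letters in these windows. The RefSeq table used has no promoter for Lgr5.

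At Ctnnb1, which encodes β-catenin itself, the only region was the promoter, and it held reads almost only in BAT. This region, chr9:120842358-120842588 in mm9, had its centre 45 bases upstream of the start site. It had 0.88 scaled reads for eWAT, 0.53 for iWAT and 49.8 for BAT, against an input of 3.25. These are 1 read in eWAT, 1 in iWAT and 18 in BAT, so both white depots lay below the input. The log2 ratio of BAT was 7.23 (4.57 to 12.6) against eWAT and 8.02 (5.36 to 13.4) against iWAT. The region was listed in BAT alone, so it entered the set through the library where it is high, and these ratios are a description.

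These ratios are given past a scaling ratio, the median over the strongest 25% of all regions, which was 1.10 between the white depots (eWAT over iWAT) and, for BAT, 0.376 over eWAT and 0.365 over iWAT. Brackets give exact Clopper-Pearson 95% intervals, which cover counting error only. A region is called higher or lower at an adjusted p under 0.05, over all 69599 regions, together with at least a 2-fold difference. The test compares the reads of 2 libraries and has no replicate check. A region listed in 1 depot alone had to be high there to enter the set, so a call in favour of that depot is read only against the share of all regions called. Because BAT values depended on the scaling, calls that held under all 4 scalings tried are also given.

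Axin2 encodes the scaffold of the complex that breaks down β-catenin and is a direct Wnt target. Its start site held 3 regions, 2 of them listed only in BAT. The region 77 bases upstream, chr11:108781471-108781701, annotated as promoter, had 6.18 scaled reads for eWAT, 3.68 for iWAT and 24.9 for BAT, against an input of 0.65. The region 873 bases downstream, chr11:108782421-108782651 in the first intron, had 1.77, 1.05, 22.1 and 0.65 in the same order. BAT had the highest scaled value at both, on 9 and 8 reads. The upstream region had 7 reads in eWAT and 7 in iWAT, and the intronic region 2 and 2. For the upstream region the log2 ratio was 3.42 (1.83 to 5.08) over eWAT and 4.21 (2.62 to 5.87) over iWAT. For the intronic region it was 5.06 (2.73 to 8.33) and 5.85 (3.53 to 9.12). Both regions entered the set through BAT alone, so these ratios too are a description.

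Between these lay a region where BAT did not have the highest scaled value. Centred 147 bases downstream of the start, in the 5′ untranslated part of exon 1, chr11:108781695-108781925 overlapped the edge of the upstream region. It had 27.4 scaled reads for eWAT, 30.5 for iWAT and 13.8 for BAT, against an input of 2.60, and was listed in both white depots only. Past the scaling ratio, the log2 ratio of BAT was 0.43 (−1.29 to 1.80) over eWAT and 0.31 (−1.36 to 1.62) over iWAT. No pair of depots was called different there.

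**Figure D1:**
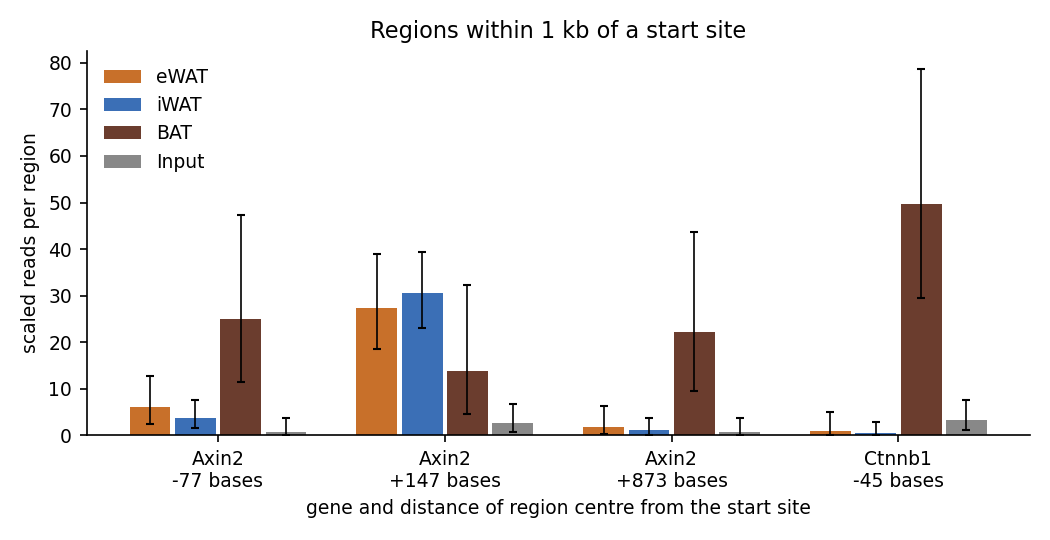
Scaled reads per region (vertical axis) in the 3 TLE3 libraries and the input at the 4 regions within 1 kb of a start site, with Poisson 95% intervals for counting error as bars. BAT is highest at 3 regions, with 24.9 and 22.1 at Axin2 and 49.8 at Ctnnb1, and lowest of the TLE3 libraries at the Axin2 region in exon 1.

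The 3 promoter-proximal regions and 1 intronic region of Tcf7l2 were called higher in BAT than in both white depots under all 4 scalings. These were 4 of the 74 regions, or 5.41%, against 1.92% of all regions. Within 1 kb of a start site the call was made at 3 of 4 member regions, against 5.24% of all 2099 such regions. The 3 promoter-proximal ones were listed in BAT alone. Among all regions listed in BAT alone, 54.5% had this call, and 55.3% of those within 1 kb of a start site, so the call at these 3 is not a result about these genes. The Tcf7l2 region was listed in iWAT and BAT. The 4 called regions rest on 8 to 18 BAT reads each.

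Most TLE3 signal at Axin2 lay far downstream of the gene, in regions strong in all depots. Of its 23 regions, 9 were 60.3 to 109.7 kb downstream of the start site, between positions 108841833 and 108891502 of chromosome 11, all intergenic. They held 68.6% of the eWAT, 70.8% of the iWAT and 81.4% of the BAT scaled reads assigned to Axin2. The gene that follows Axin2 in the reference order is Rgs9, and the assignment rests on the nearest start site alone. Of the 9 regions, 6 were listed in all 3 depots.

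The region at 60.3 kb, chr11:108841833-108842063, had 229.6 scaled reads for eWAT, 163 for iWAT and 122 for BAT, against an input of 9.11. At 69.8 kb, chr11:108851366-108851596 had 176 in eWAT, 175 in iWAT, 138 in BAT, against an input of 8.46. At 77.6 kb, chr11:108859176-108859406 had 199 in eWAT, 157 in iWAT, 108 in BAT, against an input of 5.86. The lowest rank among these 3 was in the top 1.54% of the eWAT list, 1.74% of the iWAT list and 4.57% of the BAT list.

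Another pair of downstream regions was ordered differently. At 75.5 kb, chr11:108857083-108857313 had 132 in eWAT, 104 in iWAT, 149 in BAT, against an input of 3.25, the highest BAT value at any of the 8 genes. At 94.6 kb, chr11:108876161-108876391 had 99.8 in eWAT, 196 in iWAT, 133 in BAT, against an input of 5.86. The first was called higher in BAT than in eWAT, with a log2 ratio of 1.59 (1.12 to 2.05), and than in iWAT, with 1.98 (1.52 to 2.42). Neither of these BAT calls held under all 4 scalings. The second region was called lower in eWAT than in iWAT, with a log2 ratio of −1.11, a call that did not hold under all 4 scalings. A weaker region at 92.7 kb, chr11:108874272-108874502, had 13.3 in eWAT and 59.4 in iWAT, next to 0 in BAT. It was lower in eWAT than in iWAT with a log2 ratio of −2.30 and called lower in BAT than in iWAT. It was listed in iWAT alone. In all, 5 of the 9 regions were called higher in BAT than in eWAT, against 8.51% of all regions. None of those calls held under all 4 scalings, so the count is not read as a result about Axin2.

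Upstream, 9 Axin2 regions lay 22.2 to 92.8 kb before the start, and the 3 farthest were inside introns of Cep112. The strongest eWAT value there was at chr11:108738097-108738327, 43.5 kb upstream, with 82.1 in eWAT, 39.4 in iWAT, 2.77 in BAT, against an input of 0. The log2 ratio of BAT over eWAT was −3.48 (−8.80 to −0.97), a call that held under all 4 scalings and rests on 1 BAT read. That region was listed in both white depots and not in BAT, so this ratio is a description. The strongest iWAT value was in the neighbouring region at 39.7 kb, chr11:108741864-108742094, which had 60.1, 93.0 and 13.8 in eWAT, iWAT and BAT. Over its 10 regions within 50 kb, Axin2 summed to 289 scaled reads in eWAT and 317 in iWAT, next to 108 in BAT. Over all 23 it summed to 1349, 1354 and 890.4.

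**Figure D2:**
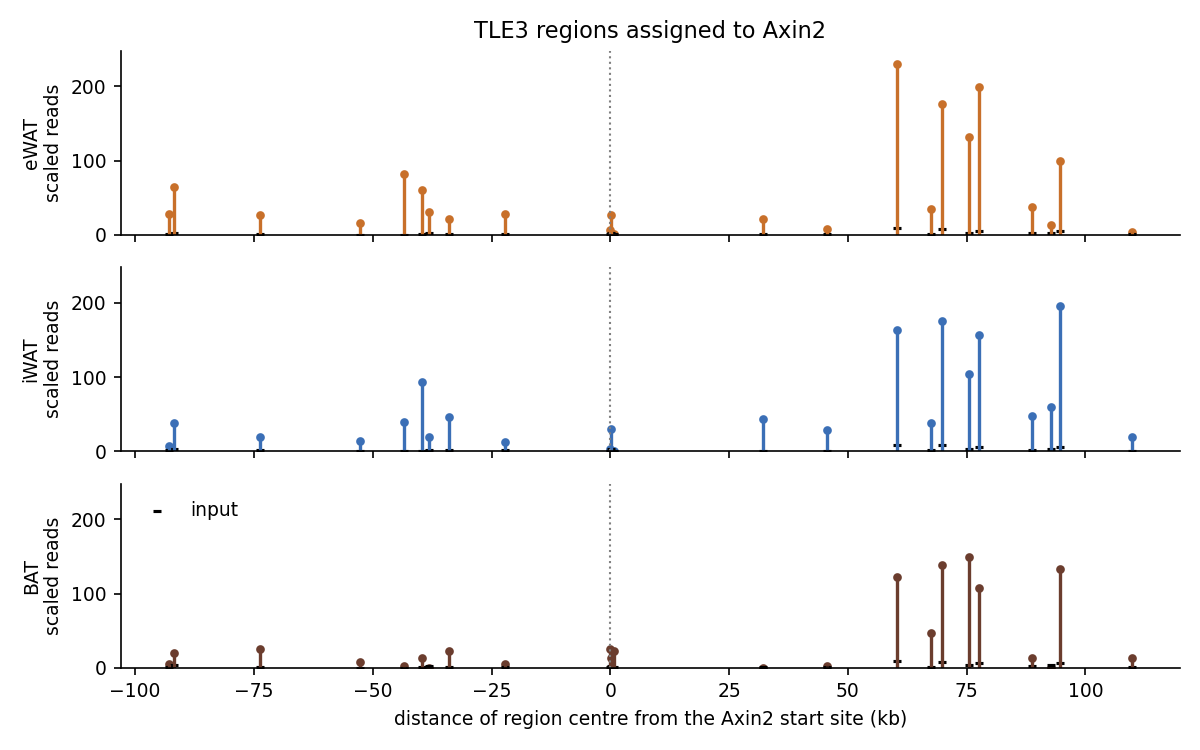
Scaled reads per region (vertical axis) against distance of the region centre from the Axin2 start site in kb (horizontal axis), with 1 panel for each TLE3 library and short dashes for the input. The tallest lines of every panel stand 60.3 to 94.6 kb downstream, and from 92.8 to 22.2 kb upstream eWAT reaches 82.1, iWAT 93.0 and BAT 24.9.

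Tcf7l2 encodes the factor also called TCF4, a TCF protein best known from the gut epithelium, and held as many regions as Axin2. Its 23 regions were measured from 2 start sites, at positions 55816300 and 55969811 of chromosome 19, and 19 were intronic. The eWAT list held 14 of these regions, the iWAT list 18 and the BAT list 4, and 3 were common to all depots. No region lay within 1 kb of either start site. Its strongest region in eWAT, chr19:55940777-55941007, had 144 in eWAT and 42.6 in iWAT, next to 19.4 in BAT. Listed in eWAT alone, this region had a log2 ratio of eWAT over iWAT of 1.63. The strongest Tcf7l2 region in iWAT, chr19:56164539-56164769, lay 195 kb past the downstream start site and had 135, 180 and 44.2, with an input of 5.86. The BAT value there missed 10 times the input and was not listed.

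White depots differed at single Tcf7l2 regions but hardly in their sum. The largest eWAT excess was at chr19:55983682-55983912, with 40.6 in eWAT, 4.73 in iWAT, 0 in BAT, against an input of 3.25, a log2 ratio of 2.97 (1.92 to 4.19). Next came chr19:56122395-56122625 with 44.2, 5.26 and 2.77, and then chr19:56012741-56012971 with 19.4, 3.68 and 2.77. All 3 lay downstream of the second start site. They were listed in eWAT alone, so their ratios are a description.

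The 5 regions called higher in iWAT lay upstream of that site and were listed in iWAT alone, so their ratios too are a description. The largest ratio was at chr19:55965348-55965578, with 0.88 in eWAT and 15.8 in iWAT, next to 0 in BAT, a log2 ratio of −4.29 (−9.64 to −1.70) that rests on 1 eWAT read. At chr19:55843426-55843656 the values were 11.5, 83.0 and 11.1 with an input of 7.16, and at chr19:55841698-55841928 they were 5.30, 22.1 and 5.53. In total 4 Tcf7l2 regions were higher and 5 lower in eWAT than in iWAT, or 39.1%, against 39.8% of all regions in either direction. A share this close to that of all regions is not a result about Tcf7l2. Within 50 kb the sums were 574 in eWAT and 522 in iWAT, next to 194 in BAT, and the gene's log2 ratio of eWAT over iWAT was −0.03 (−0.17 to 0.12) relative to the median gene.

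The strongest BAT value at Tcf7l2 was 69.1, at chr19:55877711-55877941, where eWAT had 134 and iWAT 89.3. The BAT excess that held under all 4 scalings was at chr19:55943211-55943441, an intronic region 26.5 kb upstream of the second start site. It had 9.71 in eWAT, 15.2 in iWAT, 38.7 in BAT, against an input of 0. The log2 ratio was 3.41 (2.16 to 4.69) over eWAT and 2.80 (1.77 to 3.77) over iWAT. This region was listed in iWAT and BAT and not in eWAT, so its ratio over eWAT is a description. It lay between the strongest eWAT region of the gene and chr19:55945429-55945659, where eWAT had 21.2, iWAT 32.1 and BAT 27.7. By scaled value, neighbouring Tcf7l2 regions thus had different strongest libraries, an order that depends on the scaling. Past the scaling ratio, BAT at chr19:55945429-55945659 had a log2 ratio of 1.80 (0.57 to 2.91) over eWAT. Over iWAT it was 1.24 (0.11 to 2.22). The first was called, but not under all 4 scalings, and the second was not called. The last region listed in all 3 depots, chr19:55886775-55887005, had 20.3, 15.8 and 24.9.

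**Figure D3:**
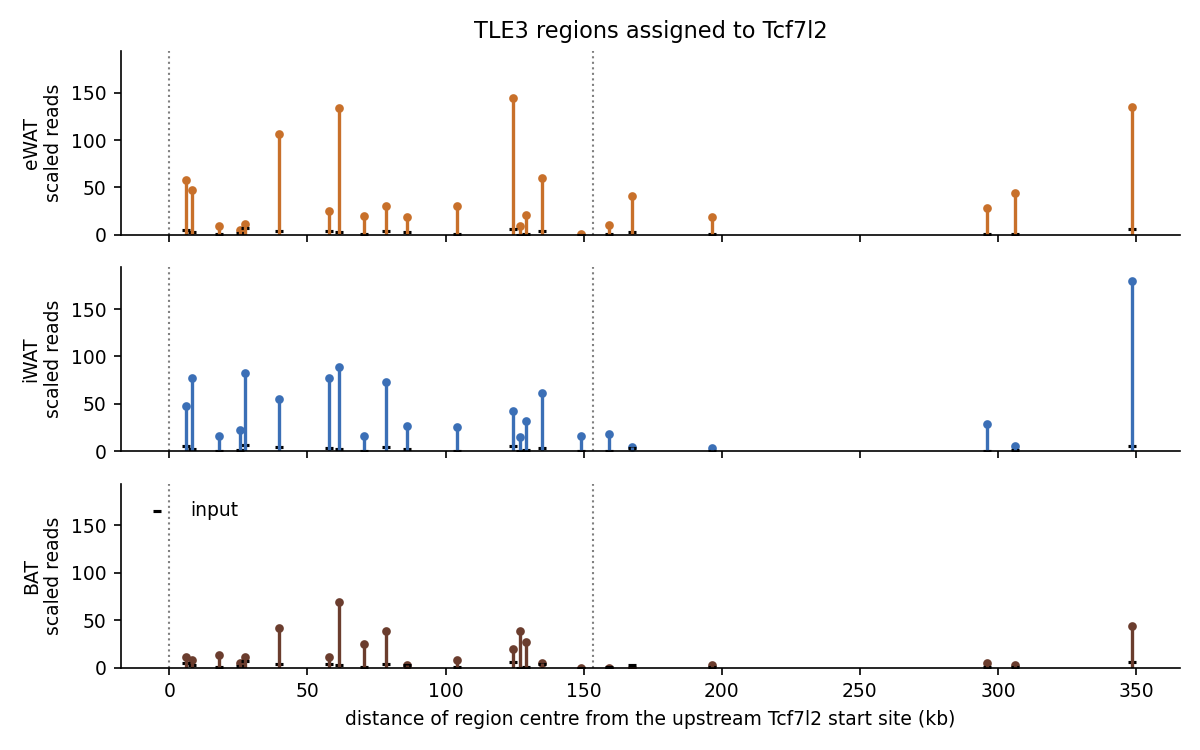
Scaled reads per region (vertical axis) against distance of the region centre from the upstream Tcf7l2 start site in kb (horizontal axis), with dotted lines at the 2 start sites and short dashes for the input. The strongest eWAT line, 144, stands just before the second start site, and the strongest iWAT line, 180, is the last region on the right.

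Of the other TCF/LEF genes, Lef1 had most of its regions far upstream. Lef1 encodes a TCF/LEF factor of lymphoid cells and of Wnt-responsive tissues. All 13 regions were intergenic and upstream, 12 of them 57.8 to 170 kb from the start site, and 12 were listed in eWAT, 9 in iWAT and 3 in BAT. Its strongest region in every TLE3 library was chr3:130740130-130740360, with 167 in eWAT, 143 in iWAT, 80.2 in BAT, against an input of 5.21. The next 2 regions toward the gene were also listed in all 3 depots. Of these, chr3:130743281-130743511 had 104 in eWAT and 89.3 in iWAT, next to 69.1 in BAT, and chr3:130755310-130755540 had 41.5, 57.8 and 47.0. Input was 0.65 at both.

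Lef1 also held regions called different between the white depots. The only region within 50 kb, chr3:130799118-130799348, had 21.2 in eWAT and 2.10 in iWAT, next to 0 in BAT, a log2 ratio of eWAT over iWAT of 3.20 (1.66 to 5.19). In the other direction, chr3:130703581-130703811 had 4.42 in eWAT and 32.1 in iWAT, next to 0 in BAT, a log2 ratio of −2.99 (−4.67 to −1.69). Each of these was listed only in the depot where it was higher, so both ratios are a description. At chr3:130659019-130659249, listed in both white depots, eWAT had 95.4, iWAT 39.9 and BAT 19.4.

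Tcf7, which encodes the T cell factor TCF1, had 1 region, and its deposited values were nearly equal in the 3 depots. This intronic region, chr11:52083434-52083664 at 12.5 kb from the start, had 106 in eWAT, 107 in iWAT, 111 in BAT, against an input of 3.90. Past the scaling ratio BAT was called higher, with a log2 ratio of 1.47 (0.92 to 2.00) over eWAT and 1.50 (0.97 to 2.00) over iWAT. Neither call held with the scaling as deposited. Tcf7l1 encodes TCF3, a mostly repressive TCF factor, and had 4 regions, none listed in BAT. At chr6:72661405-72661635, an intronic region, eWAT had 7.06, iWAT 59.9 and BAT 8.30, a log2 ratio of eWAT over iWAT of −3.22 (−4.46 to −2.19). It was listed in iWAT alone, so this ratio is a description. The strongest in eWAT, iWAT and BAT alike was chr6:72711710-72711940 with 42.4, 63.1 and 33.2, where an input of 4.56 kept eWAT and BAT below 10 times the input.

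LGR5 and LGR4 are receptors for R-spondins, which strengthen Wnt signalling. Lgr5, a marker of stem cells and a Wnt target, had a single region 40.0 kb upstream of its start, chr10:115064752-115064982. It held 7.95 scaled reads for eWAT, 213 for iWAT and 71.9 for BAT, against an input of 2.60. This was the highest iWAT value at any of the 8 genes and ranked in the strongest 0.157% of the iWAT list. The region was listed in iWAT and BAT and not in eWAT, so it entered the set through the libraries where it is high. Its ratios to eWAT are therefore a description. BAT was higher than eWAT, with a log2 ratio of 4.59 (3.45 to 5.87), a call made under all 4 scalings. BAT over iWAT was −0.11 (−0.74 to 0.46) past the scaling ratio, and no call was made, but as deposited BAT was called lower than iWAT, at −1.57. With a single region, the gene's sums rest on 9 reads in eWAT and 405 in iWAT, next to 26 in BAT.

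Lgr4 was bound along its first intron, with all 8 regions between 2.95 and 42.9 kb from the start. All 8 were listed in iWAT, 6 in eWAT and 3 in BAT. The strongest in eWAT, chr2:109795307-109795537, had 82.1 in eWAT and 58.3 in iWAT, next to 30.4 in BAT. The strongest in iWAT, chr2:109799385-109799615, had 67.1, 77.8 and 24.9. Also listed in all 3 depots were chr2:109761906-109762136, with 52.1, 45.2 and 30.4, and chr2:109776955-109777185, with 45.9, 46.3 and 24.9. Only chr2:109785278-109785508 was called different between white depots, with 4.42 in eWAT and 34.2 in iWAT, next to 11.1 in BAT and a log2 ratio of −3.08 (−4.75 to −1.79). This region was listed in iWAT alone, so its ratio is a description.

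**Figure D4:**
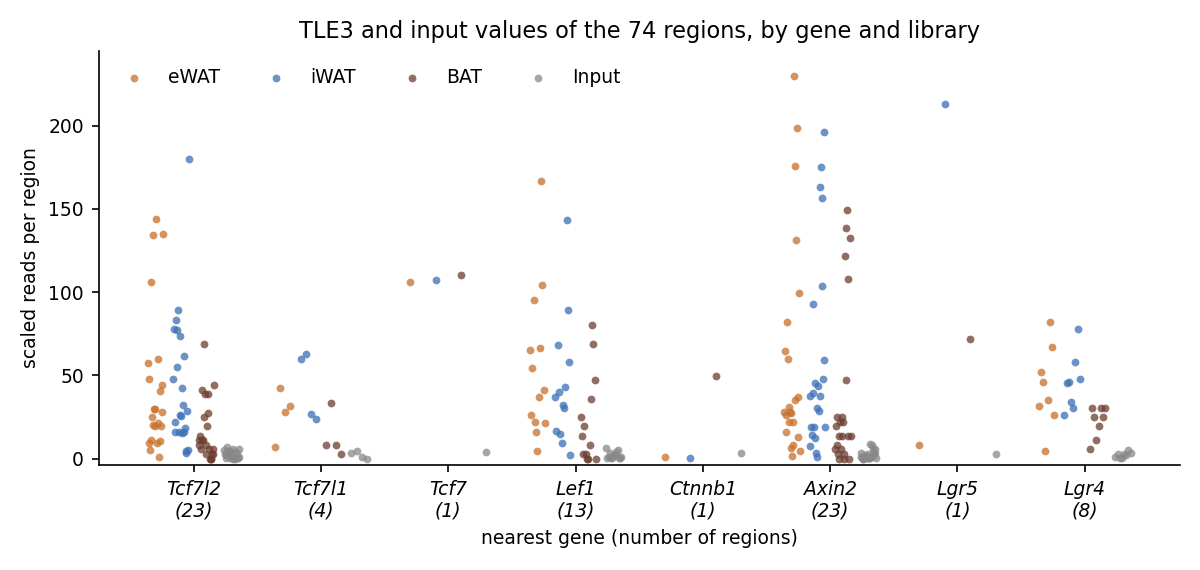
Scaled reads (vertical axis) of each of the 74 regions in eWAT, iWAT, BAT and the input, grouped by gene (horizontal axis, number of regions in brackets). Axin2 holds the highest eWAT value, 229.6, and the highest BAT value, 149, and Lgr5 the highest iWAT value, 213, while the input stays at or below 9.11.

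Over all 74 regions, eWAT listed 53 (71.6%), iWAT 58 (78.4%) and BAT 23 (31.1%), where the lists held 73.3%, 72.5% and 21.6% of all regions. All 3 depots listed 18 (24.3%), against 15.9% of all regions, and 8 of the 18 were at Axin2. Another 22 were listed in both white depots only, 13 in eWAT only, 16 in iWAT only and 3 in BAT only. Of all 69599 regions, 2183 were listed in BAT only. The shares of all regions for the other combinations are not given here, so these counts are not read as a result about the 8 genes. The limit of 10 times the input mattered for some of these counts. A library reached 15 scaled reads without being listed at 5 regions in eWAT and 4 in iWAT, and at 12 in BAT. Distance was like that of the whole set, with 34 of 74 regions over 50 kb from a start site and 43.1% of all regions.

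Between the white depots, 8 regions (10.8%) were called higher and 15 (20.3%) lower in eWAT than in iWAT, against 16.1% and 23.7% of all regions. Under all 4 scalings 8 and 13 were called, where all regions gave 15.9% and 21.3%. The median log2 ratio was −0.01 over the 74 regions and −0.04 over all regions. By size of log2 ratio, Lgr5 at −4.88 (−6.01 to −3.94) was the largest difference of either sign. These shares were at or under those of all regions.

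**Figure D5:**
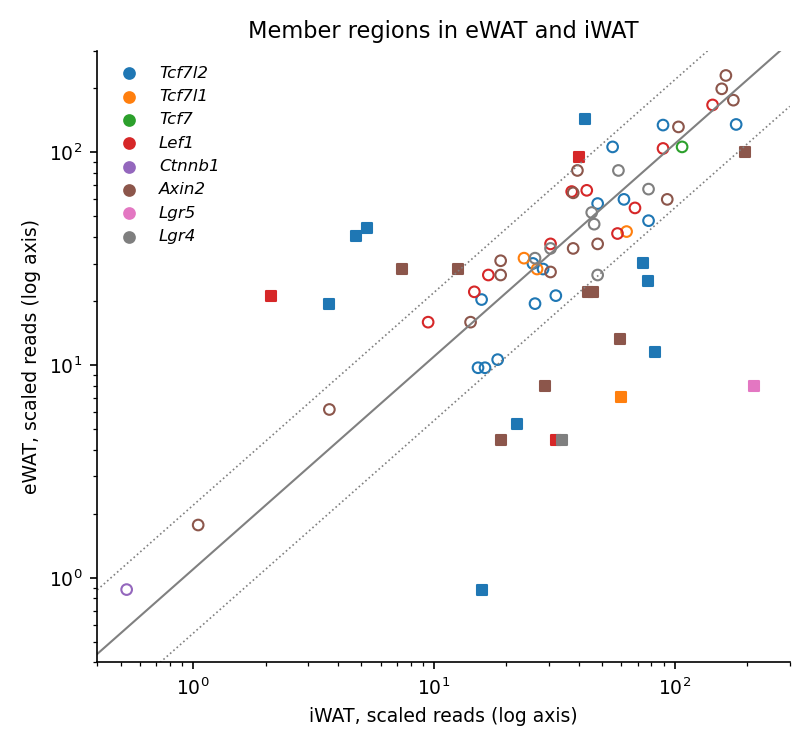
Scaled reads in eWAT (vertical, log axis) against iWAT (horizontal, log axis) for the 74 regions, coloured by gene, with filled squares for the 23 called regions. The solid line is the scaling ratio of 1.10 and the dotted lines are 2-fold either side, and the Lgr5 region stands farthest below among the strong regions with 213 in iWAT and 7.95 in eWAT.

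Against eWAT, BAT was called higher at 16 regions (21.6%) and lower at 2 (2.70%), where all regions gave 8.51% and 3.56%. Against iWAT, it was called higher at 14 (18.9%) and lower at 3 (4.05%), where all regions gave 9.35% and 3.34%. Of the higher calls, 7 in each comparison were at Axin2. Under all 4 scalings the higher calls came to 5 against eWAT and 4 against iWAT, 6.76% and 5.41%, where all regions gave 2.98% and 2.84%. There was 1 lower call against each, where all regions gave 1.47% and 0.966%. Both comparisons share the BAT library. BAT had 0 reads at 9 of the 74 regions, where 19.6% of all regions had 0. By the limit of 3 reads each such region allows up to 8.30 scaled reads.

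Summed over regions within 50 kb, 6 of the 8 genes reached a mean of 30 scaled reads and were measured. Lef1, with a mean of 7.77, and Ctnnb1, with 17.1, did not. Gene ratios are relative to the median gene, which as deposited had log2 ratios of 0.16 between the white depots, −1.54 for BAT against eWAT and −1.49 for BAT against iWAT, and a gene is called where it differs at least 2-fold and its whole interval lies on 1 side. Lgr5 was the 1 gene called between eWAT and iWAT, against 14.3% of 9099 genes. Tcf7 and Lgr5 were called between BAT and eWAT, against 24.4%, and Tcf7 between BAT and iWAT, against 26.5%. Tcf7l2, Tcf7l1, Axin2 and Lgr4 had log2 ratios of eWAT over iWAT between −0.31 and −0.03, and the intervals at Axin2, −0.50 to −0.10, and Lgr4, −0.43 to −0.07, did not reach 0.

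By the pair of log2 ratios eWAT over iWAT and BAT over iWAT in the 3 libraries, the genes nearest to Lgr5 were Tbx15, Sdhaf3 and Adamts18, at distances of 0.96, 1.32 and 1.44. Tbx15 had sums of 42.4 (eWAT), 588 (iWAT) and 185 (BAT). Nearest to Axin2 were Slc25a48, Gm19276 and Extl3, all within 0.03, and nearest to Tcf7l2 were Btd, 3110039I08Rik and Slc35c1, all within 0.03.

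Other genes of the pathway were taken from a list of destruction complex members, nuclear partners, corepressors and Wnt targets. Of 39 matched by name, 29 had a region within 50 kb, against 50.1% of 21900 protein-coding genes. Most regions were at Tle3 itself and at Cd44, a cell surface Wnt target, with 14 each, and at Nkd1, a feedback inhibitor, with 10. Nkd1 summed to 439 in eWAT and 345 in iWAT, next to 207 in BAT. There was no region within 50 kb at the kinase genes Gsk3b and Tnik, at Pygo2 and Cdc73, which act with β-catenin in the nucleus, at the Wnt inhibitor genes Rnf43, Dkk1 and Wif1, at the targets Sp5 and Ccnd1, or at Tax1bp3.

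Of the 22 list genes measured, none was called between eWAT and iWAT, and their median log2 ratio was 0.23. The highest ratios were at Ctbp2, a corepressor, with 0.88, at Myc, a growth-promoting Wnt target, with 0.60, and at Apcdd1, a membrane Wnt inhibitor, with 0.60. The lowest were at Tle4 with −0.90, at Lgr6, another R-spondin receptor, with −0.87, and at Aes, a short Groucho relative, with −0.55. In BAT, 3 were called higher than in eWAT, namely Tle4 with 1.50, Tle6 with 1.36 and Lgr6 with 1.12, and 2 lower. Against iWAT, Tle6 with 1.97 and Bcl9l, a β-catenin partner, with 1.37 were called higher and 3 genes lower, Cd44 among them with −1.07. Ctbp2 and Apcdd1 were lower than in both white depots, with 16.6 and 22.1 scaled reads in BAT, on 6 and 8 reads, against 229 and 219 in eWAT. The higher calls are relative to the median gene, and as deposited Tle6 had sums of 235 (eWAT), 148 (iWAT) and 207 (BAT). Called genes were 5 of 22 in each BAT comparison, against 24.4% and 26.5% of all genes measured, so these counts are not a result about the list. The BAT calls were named after their values were seen.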

How the data were processed

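The deposited tables list regions of build mm9 with the nearest gene and a value for each of the 4 libraries, per the file headers. The submitters' processing notes name STAR, HOMER and mm9 but neither versions nor roles. Settings of the peak caller are not given in the sources used here. The deposited values are a signal, reads per region scaled by the authors to 1 total per library. The deposited peak score is 0 in every line and was not used. The deposited distance to the start site, an value of other kind, is in bases per the file headers.

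Lists were joined by region identifier and 46914 duplicate lines dropped. In each library all values (100%) were whole steps of 1 size within 0.1 read, and reads were taken from these steps. If the scale was 10 M reads, an assumption, the libraries held 11.3 M (eWAT), 19.0 M (iWAT), 3.62 M (BAT) and 15.4 M reads (input). The reads of a pair of libraries were compared with a two-sided exact binomial test per region, with Benjamini-Hochberg adjustment over all 69599 regions (Python 3.11.15, scipy 1.17.1). The test was run on simulated data first. The other scalings were the deposited one and the median ratio over regions listed in all 3 depots or over all regions. With 1 library per depot, replicate error could not be measured.

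The text names every member gene. Of each member it names the strongest region per library, regions within 1 kb of a start site, up to 3 listed in all depots and some of the called regions. Other called regions are counted but not named. Among those are the 2 Axin2 regions called higher in eWAT than in iWAT. Of other Wnt genes it names the 3 with most regions, the 3 highest and 3 lowest ratios and those without a region. A few further regions were added after their values were seen. Members and lists were chosen with earlier results of these data known. Promoters came from RefSeq, GRCm38.p6.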

Additional observations from a re-analysis of the deposited data

How the results depend on the processing

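The BAT comparisons depended most on the scaling. With the scaling as deposited, BAT was higher than eWAT at 5 regions and lower at 29, and higher than iWAT at 4 and lower at 26. With the scaling from regions common to all depots these counts were 7 and 8 against eWAT and 5 and 12 against iWAT. With that from all regions BAT was higher at 21 regions and lower at 1 against each white depot. A change of scaling moves every region alike. The shares of all regions under each scaling are not given here, so these counts are not read as a result about the member genes. The scaling ratio of BAT over eWAT was 0.376 from the strongest, 0.596 from the common and 0.285 from all regions.

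Within 50 kb only, which keeps 40 of the 74 regions, eWAT was higher than iWAT at 5 and lower at 8, BAT higher than eWAT at 8, and BAT higher than iWAT at 5 and lower at 1. With only regions whose mean reached 30 scaled reads, which tests fewer regions, those counts were 2, 5, 9, 9 and 1. Without a fold limit eWAT was higher at 14. With the input under 5, an alternative added after seeing the data, BAT was lower than eWAT at 1. When the white lists were shortened to as many regions as BAT has, 23 regions were listed in eWAT and 25 in iWAT. Counting at least 15 scaled reads in all libraries as shared gave 30 regions in place of 18. For these settings too the shares of all regions are not given, and the counts describe the 74 regions only.

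Within 10 kb the ratio of BAT over iWAT turned to −1.63 at Tcf7l2 and 2.20 at Axin2, and BAT over eWAT at Axin2 was called, at 2.30. Of the 3 Axin2 regions this near, 2 entered the set through BAT alone, so both Axin2 ratios are a description. The Tcf7l2 regions this near entered through the white depots and were not listed in BAT. They held at most 4 BAT reads each, so the Tcf7l2 ratio too is a description. With the deposited scaling BAT over iWAT turned to −1.43 at Tcf7l2, −1.36 at Tcf7l1 and −1.05 at Lgr4. BAT over eWAT turned with that scaling to −1.21 at Tcf7l1 and −1.42 at Axin2. Both Tcf7 calls were lost with it, at 0.06 and 0.05, and BAT was called lower than eWAT at Tcf7l2, at −1.57, and lower than iWAT at Axin2, at −1.56, and at Lgr5, at −1.57. The calls of Lgr5 for eWAT over iWAT and for BAT over eWAT held in each setting that gave it a value. Within 10 kb it had none. No paired analysis was possible because each depot has 1 library, and no library could be left out for the same reason. The BAT depth limits what can be called there, with 1 read worth 2.77 scaled reads.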
